A study of Mus musculus with 48 samples.

Results

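Ctla4, Cd28 and Icos, the T cell receptors of the B7 ligands, were followed together with those ligands in mouse tumours taken before checkpoint treatment. The set was chosen by gene name, as every row of the count table whose symbol was Ctla4, Cd28, Icos, Icosl, Cd80 or Cd86. The table held 4 of these 6 genes among 39637, and Icosl and Cd80 are not analysed here. RNA was sequenced from 48 whole tumours grown under the skin of female BALB/c mice aged 8 to 9 weeks, 1 tumour per mouse. Of these, 24 came from the mesothelioma line AB1 and were taken out on day 8, and 24 came from the kidney cancer line Renca and were taken out on day 10. All mice then received anti-CTLA4 plus anti-PD-L1, and the outcome sorted them into responders and non-responders, with 12 of each per line. The comparisons ask which of the receptors and ligands already differed between those classes before any antibody was given.

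CD28 on T cells binds CD80 or CD86 on antigen-presenting cells and gives the second signal that a T cell needs, beside its antigen receptor, to divide and make cytokines. CTLA4 binds the same ligands more tightly, appears after activation, is held at high levels by regulatory T cells and can strip CD80 and CD86 from the presenting cell. ICOS is induced on activated T cells, binds ICOS ligand and sustains helper and regulatory T cells. Antibodies against CTLA4, as given to these mice after the tumours were taken, block this brake and in mice can also deplete regulatory T cells within tumours.

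The receptor genes lie side by side on chromosome 1 in the GRCm38 build (GENCODE M21 annotation), all on the plus strand. Cd28 (ENSMUSG00000026012) spans 60716800 to 60773359, Ctla4 (ENSMUSG00000026011) spans 60887000 to 60915832 and Icos (ENSMUSG00000026009) spans 60977927 to 61000320. The gaps are 113.64 kb between Cd28 and Ctla4 and 62.094 kb between Ctla4 and Icos. Cd86 (ENSMUSG00000022901) lies on chromosome 16 from 36603869 to 36666081 on the minus strand. The pseudogene Rpl18-ps1 lies within Ctla4 and the gene model Gm37039 within Icos, and neither shares an exon base with its host.

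Shown here are the 60 coding bases around the longest run that the Ctla4 and Cd28 coding sequences share, since this stretch encodes the proline-rich loop through which CTLA4 and CD28 grip their common ligands. Capitals mark bases identical in all 3 receptors.
Ctla4: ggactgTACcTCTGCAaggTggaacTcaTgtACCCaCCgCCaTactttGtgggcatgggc
Cd28: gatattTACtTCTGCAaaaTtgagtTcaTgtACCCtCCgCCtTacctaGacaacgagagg
Icos: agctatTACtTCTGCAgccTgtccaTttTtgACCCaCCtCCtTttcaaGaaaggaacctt
The stretches run from coding base 373 to 432 in Ctla4, 325 to 384 in Cd28 and 313 to 372 in Icos, in the longest coding transcript of each gene in GENCODE M21. Of the 60 positions, 22 were identical in all 3 genes. Ctla4 and Cd28 matched at 38 of 60 positions (63.3%), Ctla4 and Icos at 27 (45%) and Cd28 and Icos at 30 (50%). The stretch was centred on the longest coding run of Ctla4 and Cd28, with Icos placed by its run with Cd28, so the Ctla4 and Cd28 figure is a description of the choice and no comparison is drawn from it. Over the whole coding sequences the longest shared run was 10 bases for Ctla4 and Cd28, and 11 bases for each of them with Icos. The longest run of identical bases between any pair of the 4 genes' transcripts was 15 bases, between Cd28 and Icos.

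Library totals lay between 16.4 and 27.8 M counts (M for mega), and the counts behind single values ran from 50 to 1848 for Ctla4, 39 to 931 for Cd28, 96 to 1963 for Icos and 385 to 2536 for Cd86. Levels are given as normalised CPM, counts per M counts of a library after TMM scaling. Each tumour line was sequenced on its own pair of flow cells with response balanced on each. Markers of the renal tubule summed to between 188.6 and 430.6 CPM in Renca and to no more than 0.436 CPM in AB1. In AB1 the 3 mesothelial markers in the table summed to between 0.218 and 7.97 CPM, with non-responder 3 highest, and none of the 3 was at 0 in every tumour of a group. These were bulk tumours, in which fewer cells of a type and less RNA per cell cannot be told apart.

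In AB1, all 3 receptors and Cd86 were higher in tumours of mice that later responded, by 2.88-fold to 3.93-fold. Cd28 stood highest in fold, followed by Icos, Ctla4 and Cd86. For Cd28, Icos and Cd86, every responder lay above every non-responder. For Ctla4 the groups met at a single pair of tumours. Of all 15388 genes tested in AB1, 29.6% passed as higher in responders and 30.1% as lower, and the rise of all 4 genes is to be read against that background.

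Ctla4 ran from 30.3 to 50.7 CPM in AB1 responders with a median of 39.9, and from 2.11 to 30.6 CPM in non-responders with a median of 13.0. Non-responder 11, at 30.6 CPM, was the only non-responder above the lowest responder. The log2 fold change was 1.61 ± 0.31 (SE), with an adjusted p of 0.000101 by edgeR's quasi-likelihood test with Benjamini-Hochberg adjustment over all genes tested, the test used throughout unless another is named.

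Cd28 ran from 15.5 to 40.9 CPM in AB1 responders with a median of 28.05, and from 1.47 to 13.1 CPM in non-responders with a median of 8.52. The groups did not overlap, which held for 304 of the 15388 genes tested (1.98%) with responders on the upper side. The log2 fold change was 1.97 ± 0.27 (SE, adjusted p = 2.08e-06), and 192 passing genes, 1.25% of those tested, rose at least as far.

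Icos ran from 39.1 to 87.1 CPM in AB1 responders with a median of 66.8, and from 3.61 to 33.5 CPM in non-responders with a median of 20.01. The log2 fold change was 1.86 ± 0.27 (SE, adjusted p = 5.52e-06). Cd86, the ligand, ran from 58.2 to 114.2 CPM in responders with a median of 96.6, and from 16.4 to 55.6 CPM in non-responders with a median of 32.2. Its log2 fold change of 1.53 ± 0.17 (SE, adjusted p = 3.75e-07) was the smallest of the 4 and had the smallest error.

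Non-responders 2, 9 and 12 held the 3 lowest levels of every receptor among AB1 tumours, with Ctla4 at 2.11 CPM in replicate 9. The same 3 tumours also held the lowest levels of the T cell gene Cd3e, the regulatory T cell gene Foxp3 and the pan-leukocyte gene Ptprc. Their RNA absorbance ratios at 260 against 230 nm were 2.21, 2.03 and 1.51 in that order, against a median of 2.07 in AB1 non-responders. That group ranged from 1.08, in replicate 3, to 2.22, and AB1 responders ranged from 2.02 to 2.35 with a median of 2.205. The highest receptor levels among AB1 non-responders were those of replicate 11. Within the flow cells, all 4 genes also passed, with log2 fold changes of 1.68 to 2.14 on the first (n = 5 per group) and 1.3 to 1.85 on the second (n = 7 per group). Ctla4 moved most between them, from 2.04 to 1.3.

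**Figure D1:**
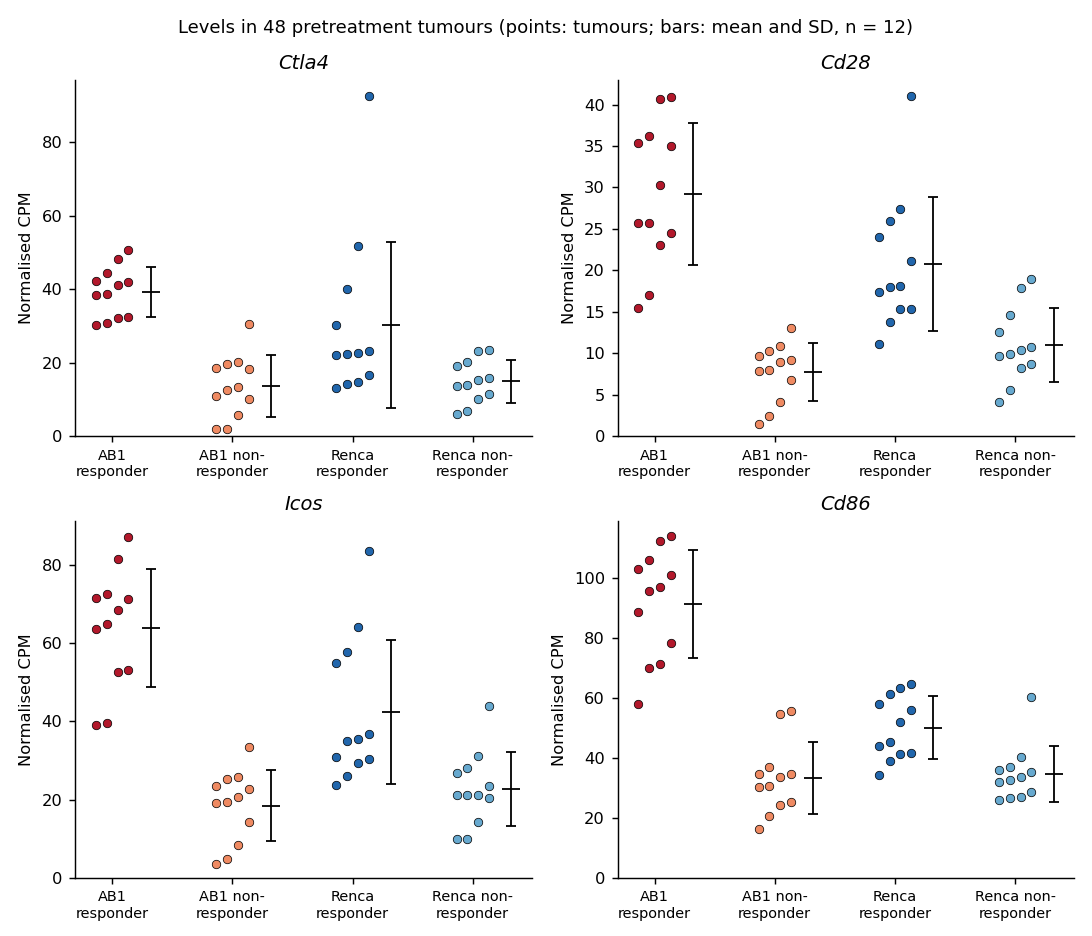
Normalised CPM of Ctla4, Cd28, Icos and Cd86 (vertical axes, from 0) in AB1 and Renca responders and non-responders (horizontal axes), with 1 point per tumour and the mean and SD of 12 tumours beside each group. AB1 groups separate for Cd28, Icos and Cd86 and meet at 30.3 and 30.6 CPM for Ctla4, while Renca groups overlap in every panel and Renca responder 8 stands alone at 92.4 CPM of Ctla4.

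T cell markers moved with the receptors in AB1. All 9 tested T cell markers rose (median log2 fold change 1.82, against -0.02 for all genes), and their summed level ran from 185.7 to 476.6 CPM in responders and from 26.7 to 162.7 CPM in non-responders. Of the 8 regulatory T cell markers 7 rose (median 1.29), summing to between 134.5 and 223.9 CPM in responders and between 51.7 and 153.8 CPM in non-responders. All 5 pan-leukocyte markers rose (median 1.37), from a range of 738.9 to 1625 CPM in non-responders to 1616 to 3645 CPM in responders. No marker of these lists was at 0 in any group. Among cells that can carry CD86, all 4 monocyte, 6 of 7 macrophage and 7 of 8 conventional dendritic cell markers rose, with 1 dendritic cell marker falling. Of 7 tested B cell markers 2 rose and 1 fell. Over all genes tested in AB1, 29.6% passed as higher and 30.1% as lower. The count of higher B cell markers is near that share, and no rise of B cells is read from it. Other cells moved in the same comparison. All 4 tested neutrophil markers rose (median 2.24), with sums from 193.7 to 739.9 CPM in responders and from 40.4 to 243.6 CPM in non-responders. Of 5 tested fibroblast markers 4 fell (median -0.80), with sums from 9922 to 27260 CPM in responders and from 18914 to 31982 CPM in non-responders. The part of these cells in the higher receptor and Cd86 levels was not tested by these markers, beyond the ratios given further on.

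In Renca, the same 4 genes were again higher in responders, by 1.46-fold to 1.91-fold, and no gene of the 4 separated the groups. Here Ctla4 stood highest in fold, followed by Cd28 and Icos, with Cd86 lowest. Of 15409 genes tested, 11.6% passed as higher in responders and 8.01% as lower. None of the 15409 had every responder above every non-responder (0.0%).

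Ctla4 ran from 13.1 to 92.4 CPM in Renca responders with a median of 22.6, and from 6.17 to 23.5 CPM in non-responders with a median of 14.6. The mean of 30.3 ± 22.6 CPM in responders (SD, n = 12) was pulled up by responder 8, and without it the mean was 24.7 ± 11.9 CPM (SD, n = 11). Of the 12 responders 10 lay above the non-responder median, and 8 of the 12 non-responders lay above the lowest responder. On the log2 scale responders stood 0.93 ± 0.26 higher (SE, adjusted p = 0.0145), and 0.73 ± 0.22 without responder 8 (adjusted p = 0.0266).

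Cd28 ran from 11.1 to 41.0 CPM in Renca responders with a median of 18.1, and from 4.09 to 19.0 CPM in non-responders with a median of 10.2. All 12 responders were above the non-responder median, and 4 non-responders were above the lowest responder. This came to a log2 fold change of 0.91 ± 0.20 (SE, adjusted p = 0.00413).

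Icos ran from 23.8 to 83.5 CPM in Renca responders with a median of 35.2, and from 9.80 to 43.9 CPM in non-responders with a median of 21.2. Icos was higher by 0.87 ± 0.22 on the log2 scale (SE, adjusted p = 0.00879). Cd86 ran from 34.3 to 64.8 CPM in responders with a median of 48.7, and from 25.8 to 60.4 CPM in non-responders with a median of 33.1. Its log2 fold change was 0.54 ± 0.13 (SE, adjusted p = 0.00646). Non-responder 3 held the highest Icos and Cd86 of its group, and leaving it out raised all 4 log2 fold changes, to between 0.66 and 1.08.

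The Renca calls changed with the flow cell and with the covariates used. On the second flow cell alone (n = 6 per group) all 4 genes passed, with log2 fold changes of 0.65 to 1.31. On the first alone (n = 6 per group) they stood at 0.54 for Ctla4, 0.79 for Cd28, 0.57 for Icos and 0.44 for Cd86, with adjusted p from 0.223 to 0.326. There edgeR passed 0 genes of any kind, with 2803 at an unadjusted p under 0.05. The labels give RNA absorbance ratios at 260 against 280 nm and 260 against 230 nm. The second of these had a median of 2.01 in Renca responders, ranging from 1.69 to 2.16, against 2.16 in non-responders, ranging from 1.85 to 2.22. With both absorbance ratios as covariates the log2 fold changes were 0.51 for Ctla4, 0.79 for Cd28, 0.65 for Icos and 0.44 for Cd86, with adjusted p from 0.056 to 0.215, and the part of RNA purity in the result was not tested further.

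T cell markers again moved with the receptors, since all 9 tested rose in Renca (median log2 fold change 0.84, against -0.01 for all genes). Their sum ran from 190.5 to 427.5 CPM in responders and from 86.5 to 268.0 CPM in non-responders. Regulatory T cell markers summed to between 80.3 and 198.5 CPM in responders and between 51.8 and 119.1 CPM in non-responders, with 6 of 8 rising (median 0.55). Responder 8, the tumour with the most Ctla4, also held the highest regulatory T cell sum. All 5 leukocyte markers rose (median 0.38). Of the cells that can carry CD86, 4 of 7 macrophage, 2 of 3 tested monocyte, 4 of 8 conventional dendritic cell and 1 of 8 B cell markers rose, as did 2 of 4 tested neutrophil markers (median 0.53). Over all genes tested in Renca, 11.6% passed as higher and 8.01% as lower. The B cell count is near the share of higher genes, and no rise of B cells is read from it. The 3 tested renal tubule markers fell (median -0.24), with sums from 188.6 to 324.5 CPM in responders and from 282.8 to 430.6 CPM in non-responders. No marker of these lists was at 0 in any group, and the part of these cells in the 4 genes' levels was not tested by these markers.

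**Figure D2:**
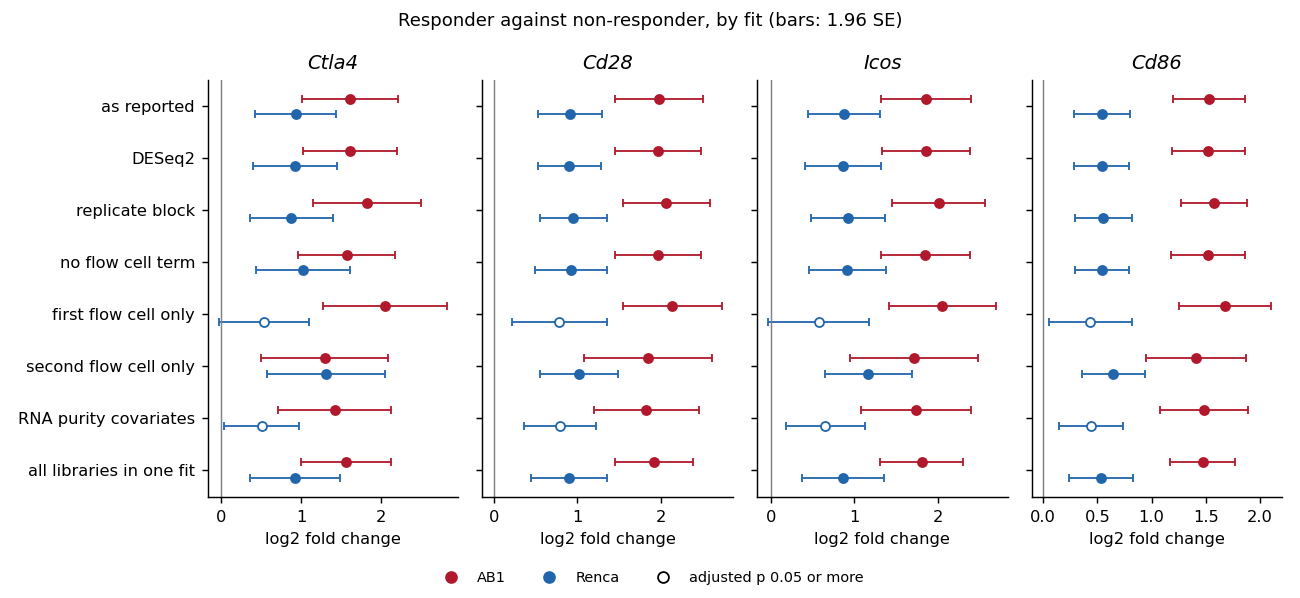
Log2 fold change of responders against non-responders (horizontal axes) in AB1 and Renca for each of 8 fits (vertical axis), with bars of 1.96 SE and open points where the adjusted p was 0.05 or more. All AB1 points are filled, and the open Renca points are those of the first flow cell alone and of the fits with RNA purity covariates.

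The response effect was larger in AB1 than in Renca for Cd28, Icos and Cd86, when the difference itself was tested over all 48 libraries. The difference in log2 fold change was 1.02 ± 0.33 for Cd28 (SE, adjusted p = 0.0106), 0.94 ± 0.35 for Icos (adjusted p = 0.0258) and 0.93 ± 0.21 for Cd86 (adjusted p = 0.000431). For Ctla4 it was 0.64 ± 0.40 with a 95% interval from -0.15 to 1.42 (adjusted p = 0.195), which does not show that its effect was alike in the tumours. Among 16509 genes tested, 18.5% passed as larger in AB1 and 26.6% as smaller. In the same test 7 of 9 T cell markers (median 0.94) and all 5 pan-leukocyte markers (median 0.94) passed as larger in AB1. Day of removal and flow cell cannot be told apart from tumour in this difference.

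The 4 genes shared a single order of mean levels across the groups, with AB1 responders highest, then Renca responders, Renca non-responders and AB1 non-responders. For Ctla4 the means were 39.3 ± 6.79, 30.3 ± 22.6, 14.99 ± 5.78 and 13.7 ± 8.34 CPM in that order (SD, n = 12 each). Cd28 averaged 29.2 ± 8.57, 20.7 ± 8.07, 10.97 ± 4.47 and 7.75 ± 3.49 CPM, and Icos 63.9 ± 15.2, 42.4 ± 18.5, 22.6 ± 9.44 and 18.4 ± 9.05 CPM. For Cd86 the means were 91.4 ± 18.1, 50.1 ± 10.5, 34.6 ± 9.32 and 33.2 ± 12.0 CPM.

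Between the top neighbours, AB1 and Renca responders, Cd86 differed by 0.87 ± 0.15 on the log2 scale (adjusted p = 1.28e-06) and Icos by 0.59 ± 0.25 (adjusted p = 0.0296). Ctla4 at 0.38 ± 0.30 (adjusted p = 0.252) and Cd28 at 0.49 ± 0.24 (adjusted p = 0.0568) did not pass, where 76.4% of all genes passed in either direction. At the bottom, AB1 and Renca non-responders passed for none of the 4, with log2 differences of -0.12 ± 0.31 for Ctla4, -0.50 ± 0.25 for Cd28, -0.30 ± 0.25 for Icos and -0.06 ± 0.15 for Cd86, and adjusted p from 0.0612 to 0.723, although 76.3% of genes passed there. All 4 genes were lower in AB1 non-responders than in Renca responders, by 1.51-fold to 2.67-fold, against 76.2% of genes passing either way. All 4 were higher in AB1 responders than in Renca non-responders, by 2.63-fold to 2.82-fold, against 78.6%. These contrasts reuse the same libraries as the response comparisons, and tumour, flow cell and day of removal cannot be told apart in them.

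Per kilobase of exon, Cd86 was the most abundant of the 4 in every group and Cd28 the least. In AB1 responders the levels were 25.0 ± 4.95 CPM per kb for Cd86, 18.6 ± 4.42 for Icos, 16.9 ± 2.92 for Ctla4 and 4.77 ± 1.40 for Cd28 (SD, n = 12). In Renca responders they were 13.7 ± 2.86 for Cd86, 13.0 ± 9.70 for Ctla4, 12.4 ± 5.39 for Icos and 3.39 ± 1.32 for Cd28, so that the upper 3 lay within 1 SD of each other. Exon lengths counted all annotated exons, 2.33 kb in Ctla4, 6.122 kb in Cd28, 3.43 kb in Icos and 3.661 kb in Cd86, whether or not a tumour used them.

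Ratios within a tumour set the receptors against each other and against Cd3e, a subunit of the T cell receptor complex, Foxp3, the factor that defines regulatory T cells, and Ptprc, the pan-leukocyte gene for CD45. Of 18 differences tested, 9 in each tumour line, 1 passed. Cd28 per Cd3e ran from 1.01 to 1.77 in AB1 responders with a median of 1.35, and from 1.02 to 1.27 in AB1 non-responders with a median of 1.16. The mean log2 ratio differed by 0.22 (permutation p = 0.00246, adjusted over the 18 to 0.0443), and 10 of 12 responders lay above the non-responder median. Within flow cells the difference was 0.26 with 5 per group on the first (exact permutation p = 0.0317) and 0.20 with 7 per group on the second (exact permutation p = 0.053). Over same-numbered pairs its adjusted p was 0.0527.

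Ctla4 per Foxp3 had the largest mean difference upward in both lines without passing the adjustment. In AB1 it ran from 1.31 to 2.24 in responders and from 0.897 to 1.74 in non-responders, a mean log2 difference of 0.34 (permutation p = 0.0102, adjusted 0.0918, 10 of 12 responders above the non-responder median). In Renca it ran from 0.867 to 2.14 and from 0.798 to 1.304, a difference of 0.29 (permutation p = 0.0272, adjusted 0.163, again 10 of 12). Responder 8 held the highest ratio in Renca.

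No ratio between receptors passed in either line. The averages of ratios given here are geometric means, taken back from the mean log2 ratio. Ctla4 per Cd28 averaged 1.39 in AB1 responders and 1.59 in non-responders, a log2 difference of -0.19 (adjusted permutation p = 0.486), and 1.298 against 1.37 in Renca. Icos per Cd28 averaged 2.22 against 2.30 in AB1 and 2.01 against 2.05 in Renca (adjusted permutation p = 0.904 and 0.912). Cd86 per Ptprc averaged 0.103 and 0.105 in the same AB1 groups, a log2 difference of -0.03 (adjusted permutation p = 0.912). These p-values miss the threshold and do not show that the proportions were equal.

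**Figure D3:**
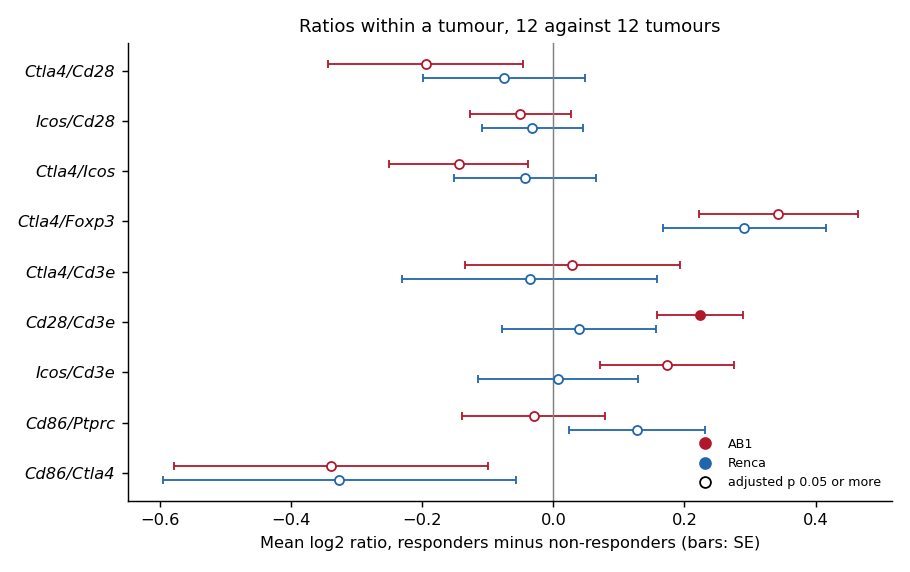
Mean log2 ratio in responders minus that in non-responders (horizontal axis) for 9 gene ratios (vertical axis) in AB1 and Renca, with bars of 1 SE over 12 against 12 tumours and open points where the adjusted permutation p was 0.05 or more. The filled point is Cd28 per Cd3e in AB1, at 0.22.

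Across the 12 tumours of a group, the levels of the receptors were correlated. For Ctla4 and Icos, r was 0.97 in responders and 0.95 in non-responders of Renca (rho = 0.96 and 0.85), and 0.82 and 0.98 in those of AB1 (rho = 0.77 and 0.93). Cd28 and Icos gave r from 0.93 to 0.98 in the 4 groups. Ctla4 and Cd28 gave r from 0.95 to 0.97 outside AB1 responders and 0.75 within them (rho = 0.71, adjusted permutation p = 0.0082 for r and 0.0157 for rho). All 12 receptor correlations passed after adjustment over the 24 computed, these last values being the largest adjusted p among them, and without the 2 tumours farthest from the median on the first gene their r stayed between 0.72 and 0.96. The share of all gene pairs that would pass was not computed, so the count is not read as particular to the receptors. Over the 48 libraries with group means subtracted, the pan-leukocyte gene Ptprc gave r of 0.78 with Ctla4, 0.87 with Cd28 and 0.84 with Icos.

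Correlations of Cd86 with the receptors all passed in AB1, while in Renca the outcome varied, and no difference between correlations was tested. With Ctla4 it gave r = 0.87 in both AB1 groups (adjusted permutation p = 0.000446 and 0.000425, rho = 0.85 and 0.85). In Renca responders it gave r = 0.31 with Ctla4, 0.35 with Cd28 and 0.43 with Icos (rho = 0.28, 0.24 and 0.42), with adjusted permutation p of 0.335, 0.279 and 0.176 for r and 0.395, 0.443 and 0.192 for rho. In Renca non-responders the values were 0.62, 0.59 and 0.68 (rho = 0.74, 0.66 and 0.60), with adjusted permutation p of 0.0339, 0.053 and 0.0189 for r and 0.0127, 0.029 and 0.0486 for rho. With flow cell means subtracted, the Renca non-responders gave 0.75, 0.73 and 0.74 with Ctla4, Cd28 and Icos, all passing (adjusted permutation p = 0.0047, 0.0093 and 0.0073), and the Renca responders gave 0.29, 0.34 and 0.44, none passing. Without the 2 farthest tumours, r with Ctla4, Cd28 and Icos stood at 0.44, 0.19 and 0.59 among Renca responders and at 0.68, 0.50 and 0.78 among the non-responders. In AB1 it stood at 0.86, 0.65 and 0.81 among responders and at 0.78, 0.67 and 0.73 among non-responders.

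**Figure D4:**
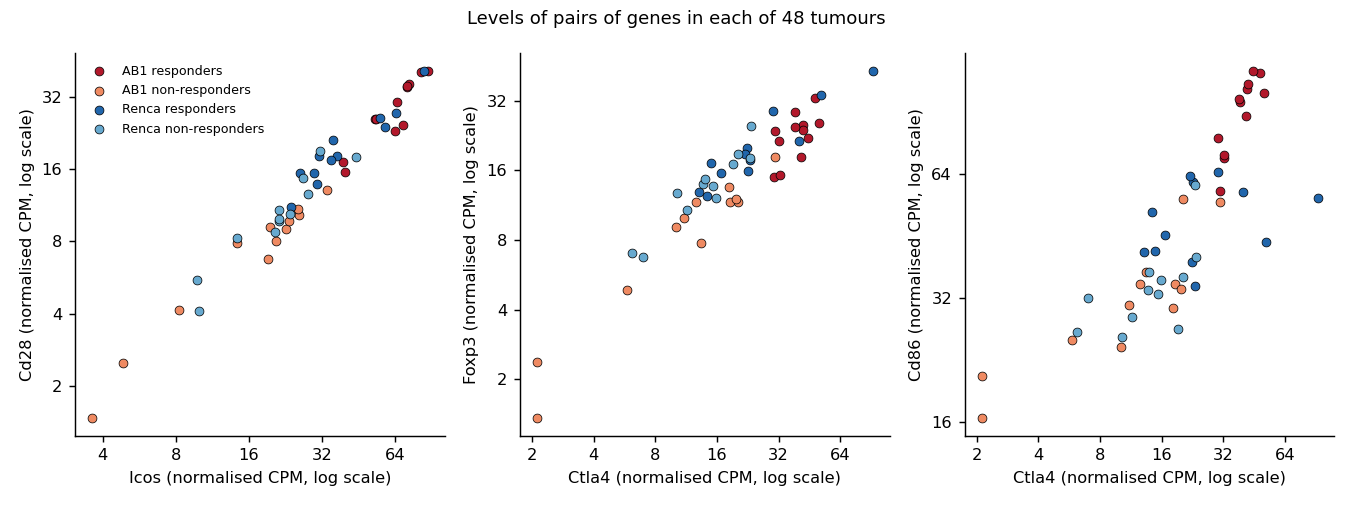
Normalised CPM of Icos and Cd28, of Ctla4 and Foxp3 and of Ctla4 and Cd86 (log axes) in each of the 48 tumours, with 1 point per tumour coloured by group. Icos and Cd28 fall along a single narrow line across the 4 groups, while in the panel of Ctla4 and Cd86 the Renca responders are scattered (r = 0.31) and responder 8 lies far to the right at 92.4 CPM of Ctla4.

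The genes whose levels most resembled each receptor were other T cell genes. Likeness was Pearson's r of log2 CPM over the 48 libraries after the group means were subtracted, over 10899 genes, given as a description of libraries that share depth and tissue mixture. For Ctla4 they were Icos (0.95), Tnfrsf18 (0.95), Foxp3 (0.93), Tnfrsf4 (0.93) and Cd2 (0.93). Tnfrsf18 encodes GITR and Tnfrsf4 encodes OX40, receptors carried at high levels by regulatory T cells, and Cd2 encodes an adhesion receptor of T and NK cells. For Cd28 they were Cd2 (0.97), Icos (0.96), Cd247 (0.96), which encodes CD3 zeta, Slamf6 (0.95), a lymphocyte receptor, and Lck (0.95), the kinase that starts T cell receptor signalling. For Icos they were Cd28 (0.96), Tnfrsf18 (0.96), Cd2 (0.95), Ctla4 (0.95) and Tnfrsf4 (0.94). Cd3e gave 0.84 with Ctla4, 0.94 with Cd28 and 0.92 with Icos, and Foxp3 gave 0.93 with each of the 3.

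For Cd86 the 5 nearest genes held no receptor of the set. They were Slc15a3 (0.93), a peptide and histidine transporter of endolysosomes, Arl5c (0.88), a small GTPase, H2-DMa (0.88), which helps load peptides on MHC class II, Il27 (0.87), a cytokine subunit gene of antigen-presenting cells, and Dusp2 (0.87), a phosphatase that acts on MAP kinases. Icos gave 0.74, Cd28 0.69 and Ctla4 0.68 with Cd86. All 5 neighbours passed as higher in responders of both lines, by 1.40 (Dusp2) to 2.05 (Il27) in AB1 and by 0.51 (H2-DMa) to 1.07 (Il27) in Renca on the log2 scale. Over all genes tested, 29.6% passed as higher in AB1 and 11.6% in Renca. The neighbours were picked for their likeness to Cd86 in the same libraries, so their count is no separate result.

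Other receptors and ligands of the CD28 and B7 families moved mostly upward with the 4 genes. Of 7 tested, 6 rose and 1 fell in AB1 (median log2 fold change 1.61) and 6 rose in Renca (median 0.48). For this and the following lists, the shares over all genes tested were 29.6% higher and 30.1% lower in AB1 and 11.6% higher and 8.01% lower in Renca, with median log2 fold changes of -0.02 and -0.01. Pdcd1, the gene of PD-1, stood at 2.19 ± 0.24 in AB1 and 1.47 ± 0.23 in Renca (SE, adjusted p = 3.33e-07 and 0.00243), above all 4 genes of the set in both lines. Vsir, which encodes the inhibitory molecule VISTA, rose by 0.73 ± 0.08 and 0.26 ± 0.05. Tnfrsf14, the TNF receptor family partner of the inhibitory molecule BTLA, rose by 1.61 ± 0.20 in AB1. Pdcd1lg2, the gene of PD-L2, rose by 0.77 ± 0.17 in Renca and by 3.35 ± 0.43 in AB1. Cd276, which encodes B7-H3, a molecule of tumour and stromal cells, was the family gene that fell in AB1, by 0.76 on the log2 scale. It was named after its values were seen, as were Ap2m1, Myc and Pik3cg, and it stood at -0.01 in Renca (adjusted p = 0.93).

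Of the signalling proteins downstream of CD28, ICOS and the T cell receptor, 16 of 19 tested rose in AB1 (median 0.79) and 14 of 19 in Renca (median 0.22), and none fell. Malt1, of the complex that activates NF-kappaB, rose by 1.27 ± 0.13 in AB1, Grb2, an adaptor that binds the CD28 tail, by 0.76 ± 0.08, and Vav1, an exchange factor downstream of CD28, by 1.26 ± 0.14. In Renca, Lck rose by 0.74 ± 0.14 and Lcp2, the adaptor SLP-76, by 0.49 ± 0.11. Akt1 and Ptpn11, which most cells express and which were named after their values were seen, did not pass in either line.

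Of 9 tested genes that control the level, transport or brakes of the receptors and ligands, 7 rose and 1 fell in AB1 (median 0.28), and 3 rose in Renca (median 0.08). March1, a ubiquitin ligase that removes CD86 and MHC class II from the cell surface, stood at 1.59 ± 0.19 in AB1 and at 0.08 ± 0.08 in Renca (adjusted p = 0.55), and the difference of 1.46 ± 0.21 passed (adjusted p = 6.91e-07). Zc3h12a, the RNase Regnase-1 that degrades transcripts including that of Icos, rose by 0.96 ± 0.12 in AB1 and 0.37 ± 0.13 in Renca. Lax1, an adaptor that dampens lymphocyte receptor signals, rose by 2.04 ± 0.26 and 0.63 ± 0.18. Dgkz, a kinase that removes diacylglycerol and so limits T cell signalling, rose by 0.18 ± 0.05 in Renca. Ap2m1, a subunit of the adaptor that takes CTLA4 into the cell, was the gene that fell in AB1. Its log2 fold change was -0.08 ± 0.04 (SE, adjusted p = 0.0488), just under the threshold of 0.05. Lrba, which protects CTLA4 from breakdown, stood at 0.28 ± 0.07 in AB1 (adjusted p = 0.00169) and -0.05 ± 0.05 in Renca (adjusted p = 0.502), and was named after its values were seen.

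Of 11 tested genes induced in T cells by costimulation, 9 rose and 1 fell in AB1 (median 0.91), and 4 rose and 1 fell in Renca (median 0.22). Cd40lg, the helper T cell ligand of CD40, stood at 1.78 ± 0.29 in AB1 and 0.58 ± 0.23 in Renca, where it did not pass (adjusted p = 0.0784). Tnfrsf4 rose by 1.3 ± 0.23 and 0.70 ± 0.18, and Il2ra, a subunit of the interleukin 2 receptor, rose by 1.54 ± 0.29 in AB1. Il10, an inhibitory cytokine gene, rose by 1.04 ± 0.23 in Renca, and Bcl2l1, the survival gene for Bcl-xL, fell by 0.31 on the log2 scale there while it rose by 0.23 ± 0.09 in AB1. Myc was the gene that fell in AB1, by 0.31 on the log2 scale. The levels of this list are those of whole tumours, and their changes cannot be assigned to T cells.

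Of 10 tested genes of activated antigen-presenting cells, the cells that display CD86, 9 rose in AB1 (median 1.31) and 6 in Renca (median 0.53), and none fell. The MHC class II genes H2-Ab1, H2-Aa and H2-Eb1 rose by 1.65 ± 0.23, 1.58 ± 0.22 and 1.62 ± 0.23 in AB1 and by 0.64 ± 0.12, 0.67 ± 0.12 and 0.73 ± 0.13 in Renca. Cd40, named after its values were seen, rose by 1.88 ± 0.27 in AB1 and stood at 0.12 ± 0.08 in Renca (adjusted p = 0.27), a difference of 1.71 ± 0.27 (adjusted p = 3.52e-06).

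**Figure D5:**
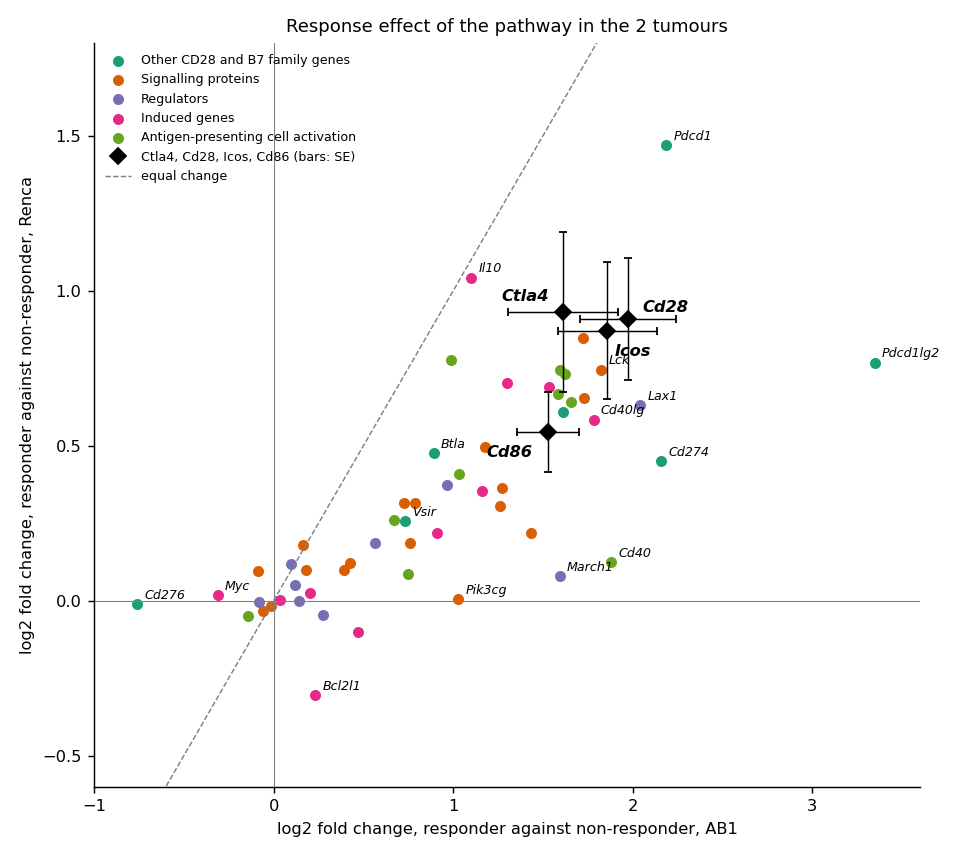
Log2 fold change of responders against non-responders in AB1 (horizontal axis) and in Renca (vertical axis) for the tested genes of 5 pathway lists other than 1 not reported here, coloured by list, and for Ctla4, Cd28, Icos and Cd86 as diamonds with bars of 1 SE; the dashed line marks equal change. The 4 diamonds lie below the line at 1.53 to 1.97 in AB1 and 0.54 to 0.93 in Renca, with Pdcd1 above them and March1, Cd40 and Pik3cg near 0 in Renca.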

How the data were processed

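The deposited table gives unnormalised whole-number counts for 39637 mouse genes in 48 libraries. Per the submitters' processing notes, StringTie 1.3.0, HISAT2 2.0.4 and bcl2fastq 2.18.0.12 were used, and human builds are named although the identifiers are mouse. How reads were counted, with which annotation, mouse build and strand setting, is not given in the sources used here. Reads of antisense or overlapping genes may therefore be included, and the authors' build may differ from the GRCm38 used for coordinates. Of the identifiers, 39461 matched GENCODE M21, and a library's total is the sum of its column.

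The response comparison within each line used edgeR 4.0.16 (R 4.3.3) on the deposited counts, with TMM scaling, filterByExpr, the quasi-likelihood F test, Benjamini-Hochberg adjustment at 0.05 and flow cell as a term. The difference between lines was fitted over 48 libraries with 4 flow cell levels, and contrasts across lines came from a model of group means. Each SE was taken as the absolute log2 fold change over the root of its F statistic. Ratios and correlations used log2 CPM (prior count 2) and two-sided permutation tests of 100000 resamples with numpy 2.4.6, with exact enumeration within flow cells. Ranks and the Benjamini-Hochberg adjustment of these tests came from scipy 1.17.1. The fits were tried on simulated counts without a flow cell effect, in which 100 genes or fewer changed at each of 2-fold and 4-fold. That is far fewer than passed in the data, and performance with so many changed genes was not tested. Of 2-fold changes, 86 of 99 were recovered in AB1 and 97 of 100 in Renca, and of 4-fold changes 99 and 100 of 100. False calls were 11 of 196 calls in AB1 and 13 of 210 in Renca.

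Per the labels, a responder and a non-responder with the same number were run on the same sequencing lane in 12 of 12 pairs of each line, although numbers 9 to 12 of each line all ran on 1 lane, so that 12 numbers cover 9 lanes. Deviations of same-numbered libraries from their group means correlated at a median of 0.0486 in AB1 and 0.0916 in Renca. A fit with the number as a block was an alternative, beside DESeq2 1.42.0, other scaling, no filter, single flow cells, RNA purity covariates, 1 fit of all libraries and 24 fits per line that left out 1 library.

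Members and gene lists were chosen with earlier results of these data known. Named genes were the 5 nearest to each member by group-centred correlation, among genes of mean log2 CPM of at least 1, and the 3 smallest p-values per pathway list in each line. Genes named outside this rule are marked in the text. A gene that this rule took is not reported here, while list counts and medians include it. Listed genes that the table did not hold are not analysed here.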

Additional observations from a re-analysis of the deposited data

Results flagged for a closer look

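The response effect differed between the tumour lines for 3 of the 4 genes, by a test of the difference itself. The log2 fold change of responders against non-responders was larger in AB1 than in Renca by 1.02 for Cd28 (edgeR adjusted p = 0.0106), by 0.94 for Icos (adjusted p = 0.0258) and by 0.93 for Cd86 (adjusted p = 0.000431). In both lines 12 of 12 responders lay above the non-responder median of each of these genes. The test used all 48 libraries, and 18.5% of the genes tested passed in this direction. So did 7 of 9 T cell markers (median difference 0.94) and all 5 pan-leukocyte markers (median 0.94). The larger effect in AB1 was therefore not particular to Cd28, Icos and Cd86. Whether tumour line, day of removal or flow cell accounts for the differences cannot be told apart.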

How the results depend on the processing

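In AB1 the calls of Ctla4, Cd28, Icos and Cd86 held in 9 alternative fits and in all 24 fits that left out 1 library, whose log2 fold changes ran from 1.46 to 1.73 for Ctla4, 1.85 to 2.04 for Cd28, 1.73 to 1.94 for Icos and 1.44 to 1.61 for Cd86. In Renca they held in 7 of 9 alternatives and in all 24 such fits, from 0.73 to 1.08 for Ctla4, 0.82 to 1.06 for Cd28, 0.78 to 1.05 for Icos and 0.50 to 0.66 for Cd86. They were lost on the first flow cell alone (0.54, 0.79, 0.57 and 0.44) and with RNA purity covariates (0.51, 0.79, 0.65 and 0.44), and the cause was not tested. With the replicate block, Renca values were 0.88 for Ctla4, 0.95 for Cd28, 0.92 for Icos and 0.55 for Cd86, and the block changed no call of these genes. It raised the adjusted p of Cd28 per Cd3e in AB1 to 0.0527, so that 0 of 18 ratios passed with the block. On the first and on the second flow cell alone, 0 passed as well. With 5 per group, as in AB1 on the first, the smallest possible exact permutation p was 0.00794. A single ratio at that p could not pass the adjustment over 18, so the count on the first flow cell decides nothing for a single AB1 ratio. Genes passing in AB1 numbered 9194 (4559 higher, 4635 lower), against 5816 on the first flow cell alone, with fewer libraries, and 10776 (4245 higher, 6531 lower) when all libraries entered 1 fit. In Renca 3027 passed (1793 higher, 1234 lower), against 0 and 1253 on the first and the second flow cell, 224 with RNA purity covariates and 820 in 1 fit of all libraries. Cd28 passed between responders of the lines with DESeq2 size factors (0.52, adjusted p = 0.0437) and DESeq2 (0.52, adjusted p = 0.0385), and between non-responders with DESeq2 (-0.50, adjusted p = 0.0486). The difference between lines kept its call, or its lack of one for Ctla4, in all 5 alternatives fitted for it. These were DESeq2 size factors, DESeq2, no filter, no flow cell term and the replicate block. The difference was not refitted with RNA purity covariates, on single flow cells or with a library left out, so its hold there was not tested. The smallest count behind a value of the 4 genes was 39.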

Other observations

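Ctla4 per Foxp3 moved between flow cells in opposite order in the tumour lines, a pattern that was not itself tested. In AB1 the mean log2 difference between responders and non-responders was 0.69 on the first flow cell (exact permutation p = 0.0238, adjusted 0.19, n = 5 per group) and 0.10 on the second (exact permutation p = 0.448, adjusted 0.647, n = 7 per group). In Renca it was 0.03 on the first (exact permutation p = 0.853, adjusted 0.958, n = 6 per group) and 0.56 on the second (exact permutation p = 0.0108, adjusted 0.195, n = 6 per group). With 5 per group, as in AB1 on the first flow cell, the smallest possible exact permutation p was 0.00794. A single ratio at that p could not pass the adjustment.

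Cd86 per Ctla4 ran from 1.88 to 2.59 in AB1 responders, a narrow band, and from 1.66 to 9.46 in AB1 non-responders, with replicate 9 highest. No AB1 responder lay above the non-responder median of 2.74, although the mean log2 difference of -0.34 did not pass (permutation p = 0.192, adjusted 0.486, n = 12 per group). In Renca the lowest ratio was that of responder 8 at 0.608, and the difference was -0.33 (permutation p = 0.243, adjusted 0.486).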
